A study of Homo sapiens with 9 samples.

Results

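The genes that bring cystine into the cell and that make, reduce, use and break down glutathione were followed in VCaP cells after silencing of CDO1. They were chosen by name for their textbook roles, by a rule that uses no measured value, but with earlier results of these data known. There were 10 of them among the 58735 genes of the count table, and all 10 were among the 15555 genes that passed edgeR's filter on low counts and were tested. By role, they are SLC7A11 (cystine import), GCLC, GCLM and GSS (glutathione synthesis), GSR and GLRX (reduction), GPX1 and GPX4 (use against peroxides), and CHAC1 and CHAC2 (breakdown).

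Cysteine is the scarce building block of glutathione, the main small thiol of the cell, and most cultured cells obtain it by importing cystine and reducing it. Glutathione is then made in successive enzymatic steps, spent by peroxidases and glutaredoxins, returned to its reduced form with NADPH, and cleaved by enzymes that release cysteinylglycine. CDO1 encodes cysteine dioxygenase, which commits cysteine to the route towards taurine and so competes with glutathione synthesis for the same amino acid.

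VCaP is an established line of prostate cancer cells with an active androgen receptor. The study set CDO1 silencing beside a control to look for pathways that move with the loss of CDO1. Cells were grown in DMEM with serum, antibiotics and 2 nM of the androgen DHT in every group, and were transfected with siCtrl (a control siRNA, the libraries labelled WT), siCDO1A or siCDO1C (separate siRNAs against CDO1, the libraries labelled CDO1 knockdown), with 3 libraries per group labelled as biological replicates. The sequences of the siRNAs are not given in the sources used here, an untransfected group was not analysed here, and all 3 groups come from 1 cell line. The methods speak of independent experiments in general, without naming the RNA-seq, and whether these libraries came from separate transfections is not given in the sources used here, so that the p-values measure the spread between these libraries.

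The libraries held from 12061295 to 16073698 counts, at which 3 counts, the limit set for a gene without counts, amount to between 0.186 and 0.247 CPM (counts scaled to library size, with TMM normalisation), counting error only. In siCtrl libraries CDO1 stood at 14.2, 14.1 and 13.6 CPM. It was at 3.28, 2.05 and 2.18 CPM in siCDO1A libraries and at 1.09, 2.81 and 1.15 CPM in siCDO1C libraries. All 6 knockdown libraries thus lay below the siCtrl libraries. The siCDO1C replicate 2 stood apart from its group, with a chi-square per degree of freedom of 13.2 and 13.1 against replicates 1 and 3, which had 2.65 between them. To a lesser degree so did siCDO1A replicate 3, with 5.88 and 6.18 against 2.48 between replicates 1 and 2. For the 10 genes, the numbers past the threshold are given with and without these libraries. For the other lists and for all genes tested they are given with all libraries only. All 10 markers of prostate luminal cancer cells passed the filter, and their summed level was 6254 to 6401 CPM with siCtrl, 7134 to 7542 CPM with siCDO1A and 6655 to 6834 CPM with siCDO1C. The groups did not overlap in this sum, whose part in the results was not tested. Summed markers of fibroblasts, leukocytes, endothelium and basal cells reached at most 23.0, 4.44, 2.67 and 3.42 CPM, and COL1A2 and CDH5 had no count in any library.

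Of the 10 genes, 7 have an entry in the RefSeq promoter table (GRCh38.p14), which holds the 250 bases before and the 50 bases after a start site. The sequences shown are those of CHAC1 and of GCLC and GCLM, both subunits of the first enzyme of synthesis. The subunits had negative log2 fold changes against siCtrl with each siRNA, but in the main fit GCLM passed with neither. CHAC1 passed as lower with siCDO1C in the main fit and in 8 of 15 alternatives. The sequences were searched on both strands for TTGCATCA, the letters of a composite C/EBP and ATF element. The search also covered TGACNNNGC, the core of the antioxidant response element. Capitals mark a match, and lower case is the remainder. Positions are CHAC1 at chr15:40953221-40953520 (plus strand), GCLM at chr1:93909381-93909680 (minus strand) and GCLC at chr6:53545052-53545351 (minus strand), each window spanning the RefSeq start site.
CHAC1: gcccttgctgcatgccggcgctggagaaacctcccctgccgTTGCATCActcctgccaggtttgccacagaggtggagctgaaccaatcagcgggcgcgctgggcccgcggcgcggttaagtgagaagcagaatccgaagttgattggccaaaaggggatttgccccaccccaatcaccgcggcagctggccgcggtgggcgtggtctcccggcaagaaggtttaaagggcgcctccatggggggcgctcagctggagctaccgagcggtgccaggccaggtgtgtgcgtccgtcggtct
GCLM: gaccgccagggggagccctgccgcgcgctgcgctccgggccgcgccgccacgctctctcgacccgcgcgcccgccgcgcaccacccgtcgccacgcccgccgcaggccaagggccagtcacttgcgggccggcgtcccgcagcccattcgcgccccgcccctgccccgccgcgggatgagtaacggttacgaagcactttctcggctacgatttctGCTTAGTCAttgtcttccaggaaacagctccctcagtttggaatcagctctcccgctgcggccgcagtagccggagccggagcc
GCLC: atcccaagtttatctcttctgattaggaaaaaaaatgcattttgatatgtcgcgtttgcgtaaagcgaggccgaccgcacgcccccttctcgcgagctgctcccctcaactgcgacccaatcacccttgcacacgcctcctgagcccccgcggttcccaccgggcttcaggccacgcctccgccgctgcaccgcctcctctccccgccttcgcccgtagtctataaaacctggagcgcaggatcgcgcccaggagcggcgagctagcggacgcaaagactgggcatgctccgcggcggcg
The match in CHAC1 begins 209 bases before the start site and is read on the strand shown. That in GCLM begins 34 bases before the start site and lies on the opposite strand. The letters TTGCATCA occur in 0.866% of 35116 promoter windows of this length, and TGACNNNGC in 13.3% of them. No other entry of these genes held either motif, GCLC included, and the matches do not overlap each other.

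Levels were first compared between the genes as RPKM in siCtrl cells, and they spanned a wide range. RPKM uses the gene length of the count table, which need not be that of the transcripts present. The order of the genes and the ratios per length between genes given below rest on that length. The peroxidase genes were the most abundant, GPX1 (148 ± 10.7 RPKM, SD, n = 3) ahead of GPX4 (115 ± 8.06). They were followed by GSR (21.2 ± 1.41 RPKM) and GSS (16.4 ± 0.698), then by GCLM (8.73 ± 0.453) and GCLC (8.10 ± 0.139). The lower end held CHAC2 (6.04 ± 0.178 RPKM), SLC7A11 (4.31 ± 0.290), GLRX (3.45 ± 0.319) and CHAC1 (1.80 ± 0.0201). No neighbours in this order had overlapping libraries in siCtrl cells. With siCDO1A, CHAC2 stood between GCLM and GCLC, overlapping both, and SLC7A11 (2.61 ± 0.258 RPKM) fell behind GLRX (3.24 ± 0.0793) and overlapped CHAC1. With siCDO1C, GSR (10.1 ± 1.31 RPKM) stood below GSS (17.8 ± 0.861), and SLC7A11 (1.499 ± 0.209) stood below GLRX (4.06 ± 0.346). In that group GPX1 and GPX4 overlapped, as did GCLM with CHAC2 and CHAC2 with GCLC.

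**Figure D1:**
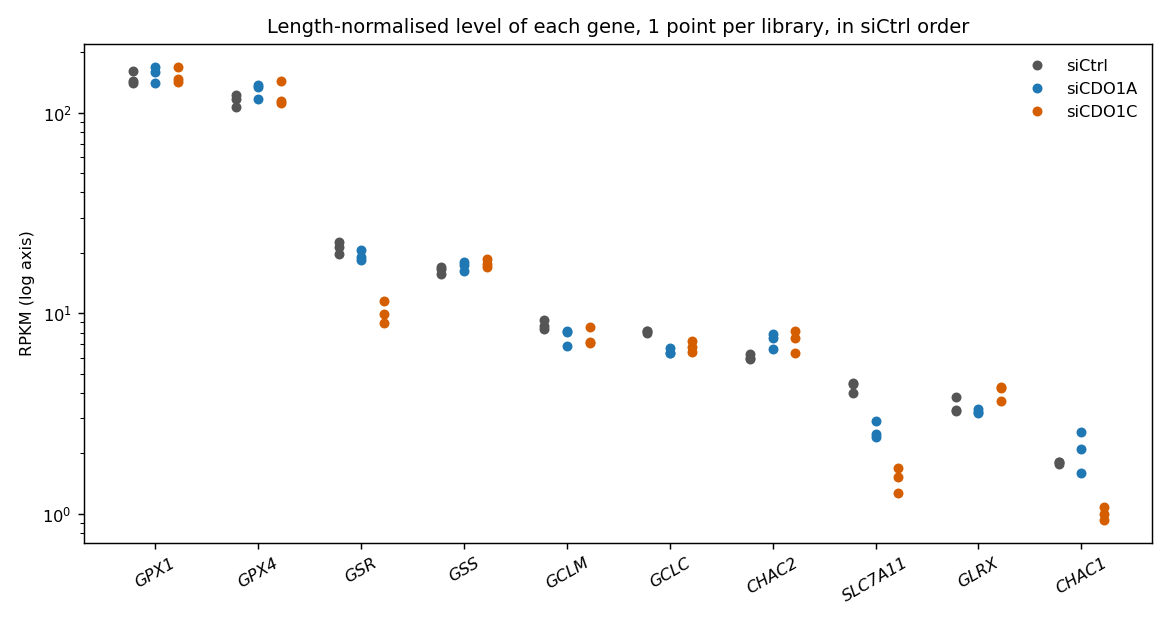
Length-normalised level (RPKM, log axis) of the 10 genes, with 1 point for each library of siCtrl, siCDO1A and siCDO1C, in the order of the siCtrl means. GPX1 and GPX4 lie far above the others, and the visible departures from the siCtrl level are those of SLC7A11 with each siRNA and of GSR and CHAC1 with siCDO1C.

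SLC7A11, the transport subunit of the cystine and glutamate exchanger xCT, was lower with each siRNA and lower with siCDO1C than with siCDO1A. The gene (ENSG00000151012) spans chr4:138164097-138242349 of GRCh38 on the minus strand. It was at 43.5, 42.9 and 38.4 CPM in siCtrl libraries. The siCDO1A libraries had 24.2, 23.3 and 28.0 CPM, and the siCDO1C libraries 14.8, 12.3 and 16.3 CPM. The groups formed 3 steps that did not overlap. With siCDO1A the log2 fold change was -0.72 (SE 0.0909, adjusted p = 1.5e-05), so that the level fell by 39.4%. With siCDO1C it was -1.53 (SE 0.113, adjusted p = 2.8e-06), and the level fell by 65.4%. Tested against each other, siCDO1C was lower than siCDO1A by a log2 fold change of -0.80 (95% interval -1.07 to -0.54, adjusted p = 0.0043). This difference missed the threshold without siCDO1A replicate 3 (log2 fold change -0.70, adjusted p = 0.088), while the falls against siCtrl passed it in all 15 alternative fits. Without siCDO1C replicate 2 the fall was -1.42 on the log2 scale. In these bulk RNA samples, fewer cells expressing a gene and less RNA per cell cannot be told apart. The antisense gene SLC7A11-AS1 had 0 to 3 counts per library.

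SLC3A2, the chaperone subunit that brings SLC7A11 to the membrane, was measured beside it. It had 85.5, 83.2 and 95.8 CPM with siCtrl. It had 90.1, 91.0 and 77 CPM with siCDO1A and 66.3, 79.5 and 66.5 CPM with siCDO1C. The siCDO1A libraries overlapped those of siCtrl, and the siCDO1C libraries lay below them. The log2 fold changes were -0.04 (SE 0.0744, adjusted p = 0.783) and -0.33 (SE 0.0895, adjusted p = 0.0504). Per length and within a library, there was 3.97 ± 0.585 (SD, n = 3) times as much SLC3A2 as SLC7A11 with siCtrl. The ratio was 6.45 ± 1.16 with siCDO1A and 9.33 ± 2.37 with siCDO1C, where replicate 2 had the highest value of 12.04.

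GCLC, the catalytic subunit of glutamate-cysteine ligase, which catalyses the rate-limiting step of glutathione synthesis, was lower with siCDO1A. The gene (ENSG00000001084) lies on the minus strand at chr6:53497341-53616970. Its level was 70.9, 68.7 and 70.6 CPM in siCtrl libraries. It was 54.6, 54.99 and 58.2 CPM with siCDO1A and 55.7, 62.9 and 58.6 CPM with siCDO1C. All 6 knockdown libraries lay below the siCtrl libraries. The fall with siCDO1A was -0.32 on the log2 scale (SE 0.0671, adjusted p = 0.0024) and passed in all 15 alternatives. With siCDO1C the value was -0.25 (SE 0.0783, 95% interval -0.42 to -0.088) and missed the threshold (adjusted p = 0.078), but passed it without siCDO1C replicate 2 (log2 fold change -0.30, adjusted p = 0.0036). The siRNAs differed by 0.07 (95% interval -0.11 to 0.26, adjusted p = 0.956).

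GCLM, the modifier subunit that makes the ligase more active, had values in the same direction that did not pass. The gene (ENSG00000023909) is at chr1:93885205-93909456 on the minus strand. It had 49.9, 45.1 and 47.0 CPM with siCtrl, 43.7, 37.2 and 44.1 CPM with siCDO1A, and 38.8, 46.3 and 38.5 CPM with siCDO1C. The siCDO1A libraries lay just below those of siCtrl, and siCDO1C replicate 2 lay among the siCtrl libraries. The log2 fold changes were -0.19 (SE 0.0828, adjusted p = 0.142) and -0.21 (SE 0.0931, adjusted p = 0.245). Each passed when the library of its own group that stood apart was left out, -0.23 without siCDO1A replicate 3 (adjusted p = 0.039) and -0.30 without siCDO1C replicate 2 (adjusted p = 0.012). The ratio of GCLC to GCLM per length was 0.929 ± 0.0347 (SD, n = 3) in siCtrl cells, 0.847 ± 0.0734 with siCDO1A and 0.901 ± 0.0507 with siCDO1C, and the groups overlapped.

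GSS, glutathione synthetase, which adds glycine in the final step (ENSG00000100983, chr20:34928433-34956027, minus strand), ranged from 96.8 to 105 CPM with siCtrl. It ranged from 100.4 to 111 CPM with siCDO1A and from 105 to 115 CPM with siCDO1C, so that each siRNA group overlapped siCtrl. The log2 fold changes were 0.07 (95% interval -0.064 to 0.20, adjusted p = 0.535) and 0.10 (-0.053 to 0.26, adjusted p = 0.503).

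**Figure D2:**
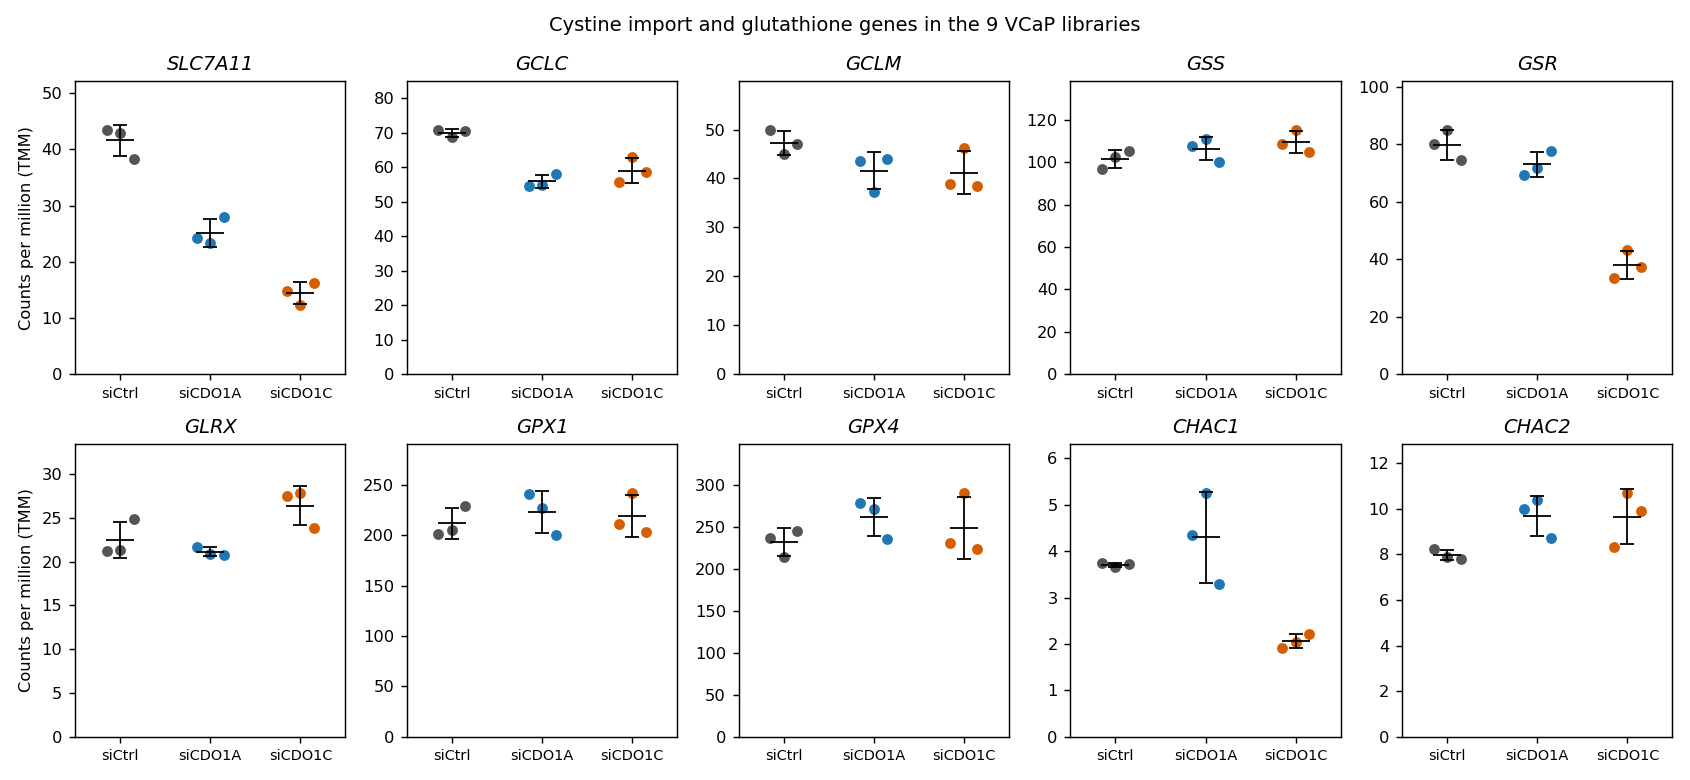
Level of each of the 10 genes in CPM after TMM normalisation, from 0, in the 3 libraries of each group (points, replicates 1 to 3 from left to right), with the group mean and SD (bars). SLC7A11 falls in 3 separate steps from 41.6 to 25.1 and 14.5 CPM on average, GSR and CHAC1 are low with siCDO1C, and GSS, GPX1 and GPX4 overlap between the groups.

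GSR, glutathione reductase, which uses NADPH to return oxidised glutathione to its reduced form, fell with siCDO1C. The gene (ENSG00000104687) is at chr8:30678061-30727999 on the minus strand. It had 80.0, 85.1 and 74.5 CPM with siCtrl and 69.4, 71.9 and 77.8 CPM with siCDO1A. With siCDO1C the libraries had 33.6, 43.3 and 37.1 CPM. The siCDO1C libraries lay far below all others, while siCDO1A and siCtrl overlapped. The log2 fold change with siCDO1C was -1.08 (SE 0.0973, adjusted p = 1.5e-05), so that the level fell by 52.7%, and it was -1.18 without replicate 2 of that group. With siCDO1A it was -0.13 (95% interval -0.27 to 0.020, adjusted p = 0.255). The difference between the siRNAs was itself past the threshold, at -0.95 (95% interval -1.16 to -0.73, adjusted p = 1.5e-04). Over the 15 alternatives that difference stayed between -1.05 and -0.87 and passed in each of them.

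GLRX encodes glutaredoxin, which reduces disulfides and releases glutathione bound to proteins (ENSG00000173221, chr5:95751319-95823005, minus strand). It had 21.2, 21.3 and 24.9 CPM with siCtrl, 21.7, 20.8 and 20.8 CPM with siCDO1A, and 27.5, 27.9 and 23.8 CPM with siCDO1C. The siCDO1C libraries lay above those of siCDO1A but overlapped siCtrl. No comparison passed, with log2 fold changes of -0.10 (adjusted p = 0.564) and 0.22 (adjusted p = 0.275) against siCtrl and 0.32 (95% interval 0.097 to 0.54, adjusted p = 0.337) between the siRNAs. The locus lies within RHOBTB3, a gene of the opposite strand with 4504 to 6823 counts per library. The strand setting of the counting is not given in the sources used here, so that reads of these genes may not have been told apart. RHOBTB3 itself had log2 fold changes of -0.21 (adjusted p = 0.011) and -0.07 (adjusted p = 0.667).

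GPX1 and GPX4 are selenoenzymes that reduce peroxides with glutathione, GPX4 being the form that acts on lipid peroxides in membranes and restrains ferroptosis. GPX1 (ENSG00000233276, chr3:49357171-49358600, minus strand) ranged from 201 to 230 CPM with siCtrl, from 200.3 to 241 CPM with siCDO1A and from 203 to 242 CPM with siCDO1C. GPX4 (ENSG00000167468, chr19:1103926-1106791, plus strand) ranged from 214 to 246 CPM, from 236 to 278 CPM and from 225 to 291 CPM. All groups overlapped for each gene. For GPX1 the log2 fold changes were 0.07 (95% interval -0.068 to 0.21, adjusted p = 0.533) and 0.04 (-0.14 to 0.21, adjusted p = 0.862), and their sign was not kept when trends with GC content and length were removed (-0.10 and -0.03). For GPX4 they were 0.17 (95% interval 0.035 to 0.31, adjusted p = 0.087) and 0.09 (-0.11 to 0.29, adjusted p = 0.664). With the same trends removed, the GPX4 value of siCDO1A came to 0.026 (adjusted p = 0.735) and that of siCDO1C also to 0.026 (adjusted p = 0.871). With siCDO1A, GPX4 passed as higher without a filter on low counts (0.17, adjusted p = 0.039) and without siCDO1A replicate 3 (0.24, adjusted p = 4.6e-04), and in none of the other 13 alternatives. GPX1 passed as higher without siCDO1A replicate 3 alone (0.14, adjusted p = 0.048). Without siCDO1C replicate 2, the siCDO1C values were -0.03 for GPX4 and -0.04 for GPX1. The count table annotates GPX1 as a polymorphic pseudogene, and the similar processed pseudogene GPX1P1 had 2.12 to 5.24 CPM. The ratio of GPX4 to GPX1 per length lay between 0.740 and 0.851 over the 9 libraries.

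CHAC1 encodes a cyclotransferase that cleaves glutathione inside the cell and is known as a target of ATF4 under stress of the endoplasmic reticulum. The gene (ENSG00000128965) lies at chr15:40952962-40956519 on the plus strand, and its promoter is among those printed above. It was at 3.73, 3.66 and 3.72 CPM with siCtrl (46 to 60 counts), and at 4.34, 5.26 and 3.30 CPM with siCDO1A (50 to 77 counts). With siCDO1C it had 1.92, 2.05 and 2.22 CPM (27 to 28 counts). The siCDO1C libraries lay below every other library, whereas siCDO1A spread around the siCtrl libraries. The log2 fold change with siCDO1C was -0.85 (SE 0.219, adjusted p = 0.038), and the level fell by 44.6%. This call rests on few counts and was lost with DESeq2 (adjusted p = 0.115), with the replicate block (0.054), without siCtrl replicate 1, 2 or 3 (0.136, 0.126 and 0.126) and without siCDO1C replicate 1 or 3 (0.134 and 0.068). It held without siCDO1C replicate 2 (adjusted p = 0.029). With siCDO1A the log2 fold change was 0.21 (95% interval -0.21 to 0.63, adjusted p = 0.542). Between the siRNAs the value was -1.06 (95% interval -1.58 to -0.55) and missed the threshold (adjusted p = 0.080), although 5 of the 15 alternatives passed it, among them the fit without siCDO1C replicate 2 (adjusted p = 0.034). DESeq2 gave no adjusted p for it.

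CHAC2, the related enzyme that is thought to turn glutathione over at a slow, constant rate, did not pass in any comparison. The gene (ENSG00000143942) is at chr2:53767792-53775196 on the plus strand. It had 8.25, 7.87 and 7.81 CPM with siCtrl, 9.99, 10.4 and 8.71 CPM with siCDO1A, and 8.35, 10.7 and 9.88 CPM with siCDO1C. Every knockdown library lay above the siCtrl libraries. The log2 fold changes were 0.28 (95% interval 0.0032 to 0.56, adjusted p = 0.173) and 0.26 (-0.039 to 0.57, adjusted p = 0.350). Its opposite-strand neighbour ASB3 had only 3 to 18 counts per library. Per length, CHAC2 exceeded CHAC1 by 3.35 ± 0.0844 (SD, n = 3) times in siCtrl cells, 3.59 ± 0.519 times with siCDO1A and 7.28 ± 0.742 times with siCDO1C. The siCDO1C ratios, from 6.79 to 8.14, lay above all others, which reached 4.11.

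**Figure D3:**
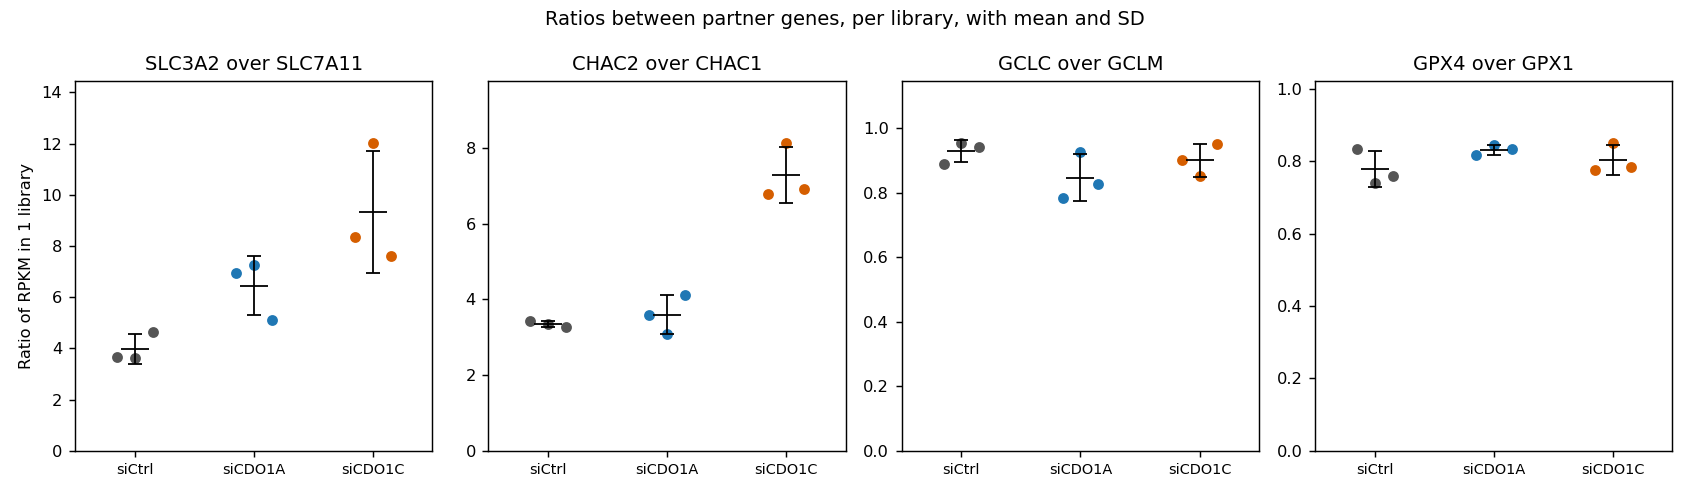
Ratio of RPKM between partner genes within each library (points, replicates 1 to 3 from left to right), with group mean and SD (bars), from 0. SLC3A2 over SLC7A11 and CHAC2 over CHAC1 are highest with siCDO1C (means of 9.33 and 7.28), and the ratios of GCLC to GCLM and of GPX4 to GPX1 overlap between the groups.

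With all libraries and the filter on low counts, the genes that passed were lower in each case. With siCDO1A, 2 of the 10 genes passed (SLC7A11 and GCLC), all lower, where 14.8% of all genes tested passed and 7.48% passed as lower. With siCDO1C, 3 passed (SLC7A11, GSR and CHAC1), all lower, where 4.77% of genes passed and 2.5% as lower. Between the siRNAs, 2 passed (SLC7A11 and GSR), lower with siCDO1C, where 0.444% of genes passed and 0.199% as lower. Without that filter, 3 passed with siCDO1A (GPX4, higher, in addition). Without siCDO1C replicate 2, 5 passed with siCDO1C (GCLC and GCLM in addition) and 3 between the siRNAs (CHAC1 in addition). Without siCDO1A replicate 3, 5 passed with siCDO1A (in addition GCLM, lower, and GPX1 and GPX4, higher) and 1 between the siRNAs (GSR). The percentages above are those of the main fit. The shares of all genes tested in these other fits are not given here, so that their counts have no such base. Counted by libraries, 3 genes lay wholly below siCtrl and 1 above with siCDO1A, where 30.6% of genes tested did not overlap. The corresponding numbers were 4 and 1 with siCDO1C (24.2% of genes tested), and 3 and 1 for siCDO1C against siCDO1A (12.7%). The median log2 fold change over the 10 genes was -0.014, -0.084 and -0.025 in the 3 comparisons, against 0.010, -0.00023 and -0.0054 over all genes tested. The comparisons with siCtrl share the same siCtrl libraries.

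**Figure D4:**
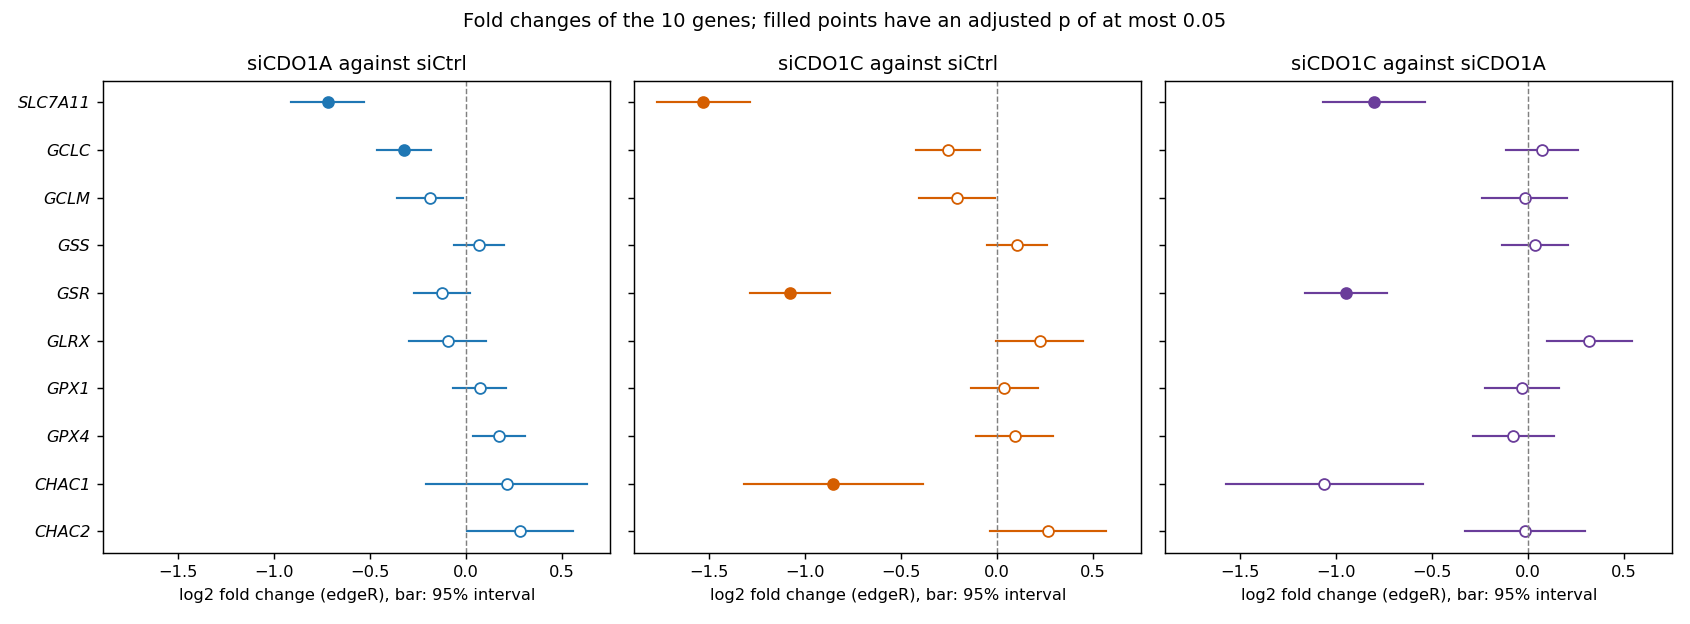
Log2 fold change of each gene by edgeR (points, filled where the adjusted p is at most 0.05) with its 95% interval (bars) for siCDO1A against siCtrl, siCDO1C against siCtrl and siCDO1C against siCDO1A. SLC7A11 is filled in each panel, GSR and CHAC1 with siCDO1C, GCLC with siCDO1A, and GSR again between the siRNAs, all on the lower side.

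By expression over the 9 libraries, the genes most like those that passed were found by the Pearson correlation of log2 CPM among 11332 genes with at least 5 CPM. The libraries share groups and replicate structure, so that these values only describe likeness. For SLC7A11 the most alike were LATS2 (r = 0.991), RMND5A (0.983) and USO1 (0.983), with log2 fold changes of -0.32, -0.19 and -0.17 with siCDO1A and -0.68, -0.45 and -0.32 with siCDO1C, each smaller in size than those of SLC7A11. For GSR they were DAZAP2 (r = 0.989), SLC25A30 (0.986) and ACPP (0.980), of which DAZAP2 (-0.97) and SLC25A30 (-0.82) had values with siCDO1C close to that of GSR and ACPP (-0.22) a smaller one. CEP55 (r = 0.977), VPS36 (0.976) and ELOVL5 (0.972) were most like GCLC. ANXA6 (r = 0.967), AARS (0.965) and AP2A2 (0.963) were most like CHAC1.

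The transcription factor ATF4 and the genes known as its targets, apart from CHAC1 and SLC7A11, formed a list of 20 genes, all tested. With siCDO1C, 7 were lower and 0 higher, where 2.5% of all genes tested were lower. In either direction, 11 had an unadjusted p under 0.05, and the share of all genes tested at that cut is not given here. The median log2 fold change of the list was -0.27. With siCDO1A, 4 were lower and 1 higher, where 7.48% of genes tested were lower and 14.8% passed in either direction, with a median of -0.075. Between the siRNAs 2 were lower with siCDO1C, where 0.199% of genes tested were, with a median of -0.19. ATF4 itself had 379, 407 and 429 CPM with siCtrl, 363, 362 and 346 CPM with siCDO1A, and 289, 347 and 304 CPM with siCDO1C. Both siRNA groups lay below siCtrl, by -0.18 (SE 0.0543, adjusted p = 0.027) and -0.38 (SE 0.0806, adjusted p = 0.014) on the log2 scale. The siCDO1A call of ATF4 was lost with the replicate block (adjusted p = 0.122), in 1 fit of all 9 libraries (0.1499) and without siCtrl replicate 2 or 3 or siCDO1A replicate 1 or 2 (0.103, 0.132, 0.066 and 0.071). Its siCDO1C call was lost without siCtrl replicate 2 or 3 or siCDO1C replicate 1 (0.093, 0.109 and 0.0997), and the values kept their sign.

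DDIT3, which encodes the stress factor CHOP, had 19.99, 23.8 and 22.8 CPM with siCtrl, 20.1, 21.2 and 17.0 CPM with siCDO1A, and 10.3, 15.1 and 11.1 CPM with siCDO1C. The siCDO1C libraries lay below all others. Its log2 fold changes were -0.88 with siCDO1C (SE 0.140, adjusted p = 0.0020) and -0.20 with siCDO1A (adjusted p = 0.240), and the siRNAs differed by -0.68 (adjusted p = 0.0496). That difference was lost in 5 of the 6 fits that left out 1 library (adjusted p = 0.310, 0.396 and 0.120 without siCDO1A replicate 1, 2 or 3, and 0.328 and 0.165 without siCDO1C replicate 1 or 3), with RLE size factors (0.053) and with at least 10 counts required in every library (0.059). NUPR1, a small stress-induced nuclear protein, fell by 0.39 on the log2 scale with siCDO1C (adjusted p = 0.014). That call was lost in each fit without a siCtrl replicate and without siCDO1C replicate 1 or 3 (adjusted p between 0.056 and 0.109). PPP1R15A, which restores translation after stress, fell by 0.45 on the log2 scale with siCDO1A (adjusted p = 0.0096). Its value with siCDO1C was -0.34 (adjusted p = 0.103), with all libraries of both siRNAs below siCtrl, and the siRNAs differed by 0.11 (95% interval -0.19 to 0.40). Further genes of the list that passed in 1 comparison or more, named after their values were seen, were ATF3, ATF5, PSAT1, SESN2, XPOT, STC2 and CEBPB, of which CEBPB alone was higher.

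Genes known as targets of NRF2, the factor that answers oxidative stress, formed a list of 19, of which 15 were tested. HMOX1, ABCC2, AKR1B10 and AKR1C2 did not pass the filter. The list and its counts leave out SLC7A11, GCLC, GSR, ME1 and GPX2, each past the threshold as lower in 1 comparison or more. With siCDO1A 3 genes of the list were lower, where 7.48% of genes tested were, and with siCDO1C 1 was lower, where 2.5% were. Between the siRNAs 1 was higher with siCDO1C, where 0.444% of genes tested passed in either direction. Their median log2 fold changes were -0.11, -0.10 and -0.042 in the 3 comparisons. TXNRD1, the cytosolic thioredoxin reductase, had 495, 485 and 483 CPM with siCtrl, 378, 354 and 393 CPM with siCDO1A, and 363, 351 and 370 CPM with siCDO1C. All 6 knockdown libraries lay well below siCtrl, at -0.38 (SE 0.0516, adjusted p = 3.3e-05) and -0.44 (SE 0.0669, adjusted p = 0.0013) on the log2 scale, in all 15 alternatives. PRDX1, a peroxiredoxin that removes hydrogen peroxide, had 125, 133 and 135 CPM with siCtrl, 92.5, 85.3 and 74.5 CPM with siCDO1A, and 113, 142 and 119 CPM with siCDO1C. It was low in the siCDO1A libraries, by -0.64 on the log2 scale (SE 0.0712, adjusted p = 2.9e-06), with -0.08 (adjusted p = 0.664) for siCDO1C. The siRNAs differed in it by 0.56 (adjusted p = 0.014), a call lost without siCDO1A replicate 2 or 3 (adjusted p = 0.130 and 0.122). SQSTM1, the autophagy receptor p62, fell by 0.21 on the log2 scale with siCDO1A (adjusted p = 0.042). It passed in none of the fits that left out 1 library (adjusted p between 0.050 and 0.134). It passed neither with the replicate block (0.126) nor in 1 fit of all 9 libraries (0.103). With siCDO1C its log2 fold change was -0.20 (adjusted p = 0.125), and the siRNAs differed by 0.0052 (95% interval -0.18 to 0.19).

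Other transporters of cystine, cysteine and glutathione formed a list of 12 genes, 11 of them tested (all but SLC7A9). With siCDO1A 2 were higher and 0 lower, where 14.8% of all genes tested passed in either direction. With siCDO1C 1 was lower and 0 higher, where 4.77% passed. SLC1A4, a carrier of small neutral amino acids including cysteine, had 63.4, 64.7 and 69.7 CPM with siCtrl, 60.7, 56.4 and 54.6 CPM with siCDO1A, and 42.8, 44.2 and 47.1 CPM with siCDO1C. It formed 3 steps like SLC7A11, with log2 fold changes of -0.21 (adjusted p = 0.055) and -0.57 (adjusted p = 9.2e-04), and the difference between the siRNAs of -0.36 missed the threshold (adjusted p = 0.125). ABCC4 and ABCC1 are exporters that can carry glutathione or its conjugates. With siCDO1A they were higher on the log2 scale by 0.44 (adjusted p = 0.0037) and 0.31 (adjusted p = 0.013). The ABCC1 call was lost in 1 fit of all 9 libraries (adjusted p = 0.052) and without siCtrl replicate 2 or 3 (0.087 and 0.060). The siCDO1C values were 0.40 (adjusted p = 0.051) and 0.05 (adjusted p = 0.861). The median of the list was 0.0024 with siCDO1A, -0.023 with siCDO1C and -0.031 between the siRNAs.

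Among 15 genes of glutathione turnover and cysteine supply, 10 were tested, and GGT5, GGT6, DPEP1, DPEP2 and DPEP3 did not pass the filter. With siCDO1A 1 was higher and 1 lower, where 14.8% of all genes tested passed in either direction. GGT1, which starts the breakdown of glutathione outside the cell, fell by 0.34 on the log2 scale (adjusted p = 0.016). OPLAH, which returns 5-oxoproline to glutamate, rose by 0.34 on that scale (adjusted p = 0.011). The GGT1 call was lost without siCtrl replicate 1 (adjusted p = 0.053), and that of OPLAH without siCtrl replicate 1 or 2 or siCDO1A replicate 2 (0.070, 0.055 and 0.091) and with trends of GC content and length removed (0.060). With siCDO1C none passed in edgeR (1 at an unadjusted p under 0.05), where 4.77% of genes tested did. The siCDO1C values were -0.22 for GGT1 and 0.17 for OPLAH. The medians of the list were -0.12 with siCDO1A, -0.070 with siCDO1C and 0.015 between the siRNAs.

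A list of 11 other peroxidases, glutaredoxins and related enzymes, all tested, held the same 2 calls with each siRNA. Of all genes tested, 14.8% passed with siCDO1A and 4.77% with siCDO1C. GPX2, the glutathione peroxidase of epithelia, had 5.52, 5.64 and 5.15 CPM with siCtrl (71 to 83 counts), 2.70, 3.01 and 2.90 CPM with siCDO1A, and 3.69, 2.58 and 2.39 CPM with siCDO1C. All 6 knockdown libraries lay below siCtrl, at -0.91 (SE 0.184, adjusted p = 0.0019) and -0.90 (SE 0.207, adjusted p = 0.021) on the log2 scale. GLO1, which detoxifies methylglyoxal with glutathione, was higher on that scale by 0.28 (adjusted p = 0.0031) and 0.36 (adjusted p = 0.020). With siCDO1C both calls were lost without siCtrl replicate 1, 2 or 3 (adjusted p of 0.093, 0.102 and 0.080 for GPX2 and 0.1005, 0.068 and 0.141 for GLO1), and that of GPX2 without siCDO1C replicate 3 (0.067). The medians of the list were -0.028, -0.059 and 0.010 in the 3 comparisons.

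For NADPH, which GSR and TXNRD1 consume, a list held 17 genes of its supply and of linked pathways. Of these, 15 were tested (not ALDH1L1 and ALDH1L2). With siCDO1A 2 were higher and 1 lower, where 14.8% of genes tested passed in either direction. With siCDO1C 0 were higher and 1 lower, where 4.77% passed. ME1, the cytosolic malic enzyme, had 26.4, 25.0 and 23.0 CPM with siCtrl, 19.2, 16.7 and 20.9 CPM with siCDO1A, and 17.6, 20.2 and 17.0 CPM with siCDO1C. It was lower with each siRNA, by -0.39 (adjusted p = 0.013) and -0.45 (adjusted p = 0.028) on the log2 scale. The siCDO1A call of ME1 was lost without siCtrl replicate 1 or 2 or siCDO1A replicate 2 (adjusted p = 0.071, 0.054 and 0.092), and the siCDO1C call in each of the 6 fits that left out 1 library except that without siCDO1C replicate 2 (adjusted p between 0.060 and 0.155). TKT, a transketolase of the pentose phosphate pathway, rose by 0.22 on the log2 scale with siCDO1A (adjusted p = 0.0043). MTHFD1, an enzyme of folate metabolism, rose by 0.20 on that scale with siCDO1A (adjusted p = 0.043). The MTHFD1 call was lost in each fit that left out 1 library (adjusted p between 0.056 and 0.154) and with DESeq2 (0.054). It was also lost in 1 fit of all 9 libraries (0.111) and with the replicate block (0.152). With siCDO1C the values were 0.027 for TKT (adjusted p = 0.882) and 0.14 for MTHFD1 (adjusted p = 0.372). The medians of the list were 0.11 with siCDO1A, 0.017 with siCDO1C and -0.066 between the siRNAs.

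Of 9 genes of selenoprotein synthesis, on which GPX1, GPX4 and TXNRD1 depend, 1 passed with siCDO1A, where 14.8% of genes tested did. None passed with siCDO1C in edgeR (0 at an unadjusted p under 0.05), where 4.77% of genes tested did. SEPSECS, which makes the selenocysteine of its transfer RNA, fell by 0.46 on the log2 scale with siCDO1A (adjusted p = 0.020). That call was lost without siCtrl replicate 1 or 2 or siCDO1A replicate 2 (adjusted p = 0.075, 0.134 and 0.093). The medians of the list were -0.051, -0.11 and -0.028. None of the 12 glutathione transferases tested passed in any comparison in edgeR, where 14.8%, 4.77% and 0.444% of all genes tested passed. At an unadjusted p under 0.05 there were 1, 1 and 0 of them, and the medians of the list were 0.048, 0.0068 and 0.015. A further 7 of the 19 listed were not tested, among them GSTP1, named after its values were seen, with at most 0.636 CPM in any library.

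**Figure D5:**
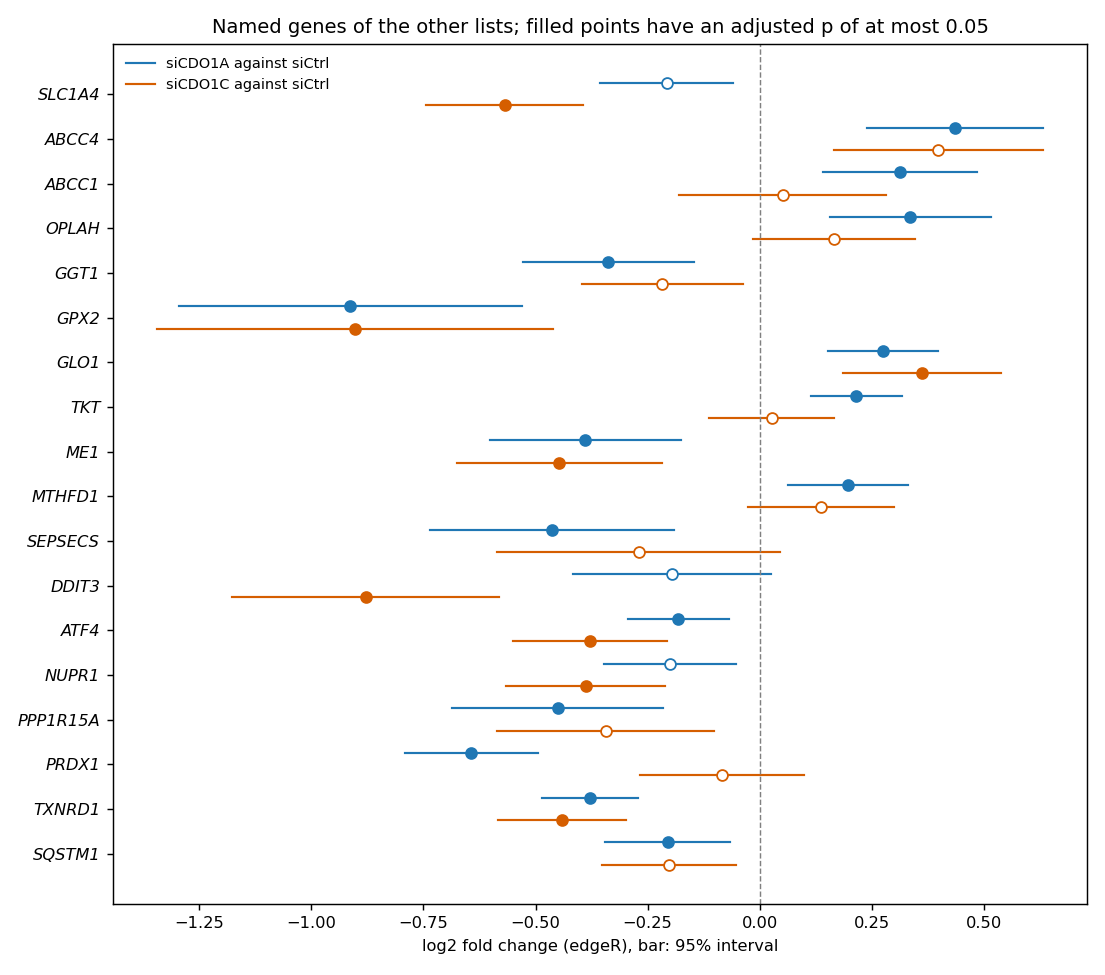
Log2 fold change by edgeR (points, filled where the adjusted p is at most 0.05) with 95% interval (bars) for the named genes of the other lists, with siCDO1A and siCDO1C each against siCtrl. TXNRD1, ME1, GPX2 and ATF4 are filled on the lower side and GLO1 on the higher side with each siRNA. For siCDO1A alone, PRDX1, GGT1, PPP1R15A, SEPSECS and SQSTM1 are filled on the lower side. ABCC1, ABCC4, OPLAH, TKT and MTHFD1 are filled for it alone on the higher side. For siCDO1C alone, DDIT3, NUPR1 and SLC1A4 are filled, on the lower side.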

How the data were processed

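RNA-seq counts of 9 VCaP libraries were analysed, 3 each of siCtrl, siCDO1A and siCDO1C. Strand-specific libraries of poly(A) RNA were read from both ends, and the submitters' processing notes name CASAVA, HISAT2 2.0.5 and hg38. Reads per gene were counted with featureCounts, whose strand and multiple-mapping settings are not given in the sources used here. The authors deposited raw counts (whole numbers, not normalized), and 3 columns that match no sample were not used.

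Genes were kept by filterByExpr (minimum count 10), which left 15555 of 58735, and counts were scaled with TMM. The groups compared were fitted with the robust quasi-likelihood test of edgeR 4.0.16 in R 4.3.3, with Benjamini-Hochberg adjustment over all genes tested and a threshold of 0.05 on the adjusted p. CPM uses TMM library sizes, and RPKM divides it by the gene length of the count table. Scripts were tested on simulated data.

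The 10 genes, the 8 other lists and the tests were chosen with earlier results of these data known. Named genes are the 10, CDO1, cell type markers, at most 4 genes of each other list by smallest p among those past the threshold, and the 3 genes most alike in expression to each of the 10 that passed. SLC3A2, RHOBTB3, SLC7A11-AS1, ASB3, GPX1P1, GSTP1 and the further ATF4 targets were added after their values were seen. Promoters came from RefSeq (GRCh38.p14), with none for SLC7A11, GSS or GSR. Alternatives were DESeq2 1.42.0, 1 fit of all 9 libraries, RLE size factors, other filters, legacy=FALSE, a replicate block, each library left out and, chosen after seeing the data, trends with GC content (known for 99.3% of genes tested) and length removed.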

Additional observations from a re-analysis of the deposited data

Results flagged for a closer look

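GSR, SLC7A11, DDIT3 and PRDX1 stood out because the effect of siCDO1C differed from that of siCDO1A in the direct test of the siRNAs by edgeR, in which 0.444% of all genes tested passed. GSR was lower with siCDO1C by -0.95 on the log2 scale (adjusted p = 1.5e-04), in 3 of 3 libraries. SLC7A11 was lower with siCDO1C by -0.80 (adjusted p = 0.0043), in 3 of 3 libraries, and this gene had also fallen with siCDO1A. DDIT3 was lower with siCDO1C by -0.68 (adjusted p = 0.0496), in 3 of 3 libraries. PRDX1 was higher with siCDO1C by 0.56 (adjusted p = 0.014), in 3 of 3 libraries, where it was siCDO1A that departed from siCtrl. Of the 15 alternative fits, the difference passed in 15 for GSR, 14 for SLC7A11, 13 for PRDX1 and 8 for DDIT3. CDO1 itself differed between the siRNAs by -0.56 (SE 0.350, adjusted p = 0.826), with overlapping libraries.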

How the results depend on the processing

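Over the 10 genes, the 3 comparisons and 15 alternatives, 413 of 450 fold changes kept their direction and their side of the threshold. A further 11 passed only in the alternative, 8 no longer passed and 18 changed sign, none of the latter past the threshold in either fit. The falls of SLC7A11 with each siRNA, of GCLC with siCDO1A and of GSR with siCDO1C, and the difference of GSR between the siRNAs, passed in all 15. With 1 library left out, the number of the 10 genes past the threshold was 2 to 5 with siCDO1A (5 without siCDO1A replicate 3), 2 to 5 with siCDO1C (5 without siCDO1C replicate 2) and 1 to 3 between the siRNAs (1 without siCDO1A replicate 3). The shares of all genes tested that passed in these fits with 1 library left out are not given here. Changes of sign in these fits were those of GPX4 (-0.032 to 0.16) and GPX1 (-0.037 to 0.099) with siCDO1C, and of GCLM (-0.11 to 0.041), GPX1 (-0.11 to 0.030) and CHAC2 (-0.096 to 0.084) between the siRNAs. With trends of GC content and length removed, GPX1 was at -0.10 with siCDO1A, -0.034 with siCDO1C and 0.066 between the siRNAs (-0.10, -0.035 and 0.065 with the replicate block as well), and GPX4 was at 3.4e-05 between the siRNAs without the block. The cause of these changes was not tested.

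The labels give the same numbers, as batch and replicate, to each group. Deviations of same-numbered libraries from their group means had correlations across 11332 genes of -0.208, -0.092 and -0.384 between siCDO1A and siCtrl, 0.0541, -0.00622 and -0.283 between siCDO1C and siCtrl, and -0.137, 0.13 and 0.385 between the siRNAs, so that the numbers were not taken as pairs. With the replicate block 2, 2 and 2 of the 10 genes passed in the 3 comparisons, and CHAC1 with siCDO1C lost its call (log2 fold change -0.85, adjusted p = 0.054). The share of all genes tested that passed with the block is not given here. CHAC1 had 27 to 77 counts per library, so that counting error adds to the spread of its values.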
